A study of Mus musculus with 4 samples.

Results

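HOX genes encode homeodomain transcription factors, and the 39 mouse members were followed here by RNA-seq in iMOP cells, a mouse line derived from progenitors of the inner ear and made to divide without limit. The members were all gene rows whose symbol is Hox with a cluster letter from a to d and a number, which gave 39 of 49997 rows. No measured value entered that choice. There were 11 members in the HoxA cluster, 10 in HoxB, 9 in HoxC and 9 in HoxD. The study compared 2 libraries labelled iMOP-derived neurons with 2 labelled proliferating iMOPs, each group numbered 1 and 2. Neuron cultures were kept in Neurobasal medium with N21, with L-glutamine at 2 mM, and with the CDK2 inhibitor K03861 at 1 µM. Proliferating cultures were kept in DMEM/F12 with N21, with carbenicillin, an antibiotic, at 25 µg/ml and the growth factor bFGF at 20 ng/ml. All libraries carry the genotype label wild-type and come from the same line. The labels do not say whether the numbered libraries were separate cultures, so any spread or p-value below covers only these libraries and may be technical.

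Mouse HOX genes lie in 4 clusters on different chromosomes, and genes at matching places in the clusters form paralogue groups 1 to 13. Along the body axis the low groups are switched on furthest forward, from the hindbrain, and the high groups toward the tail, so the set of active HOX genes is used as a mark of axial level. The forebrain, the midbrain and most of the head ectoderm form without HOX expression, and the inner ear arises from ectoderm beside the hindbrain. Below, groups 1 to 3 are called anterior, 4 to 8 central and 9 to 13 posterior.

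The start regions of several members show the sequence before HOX genes with and without counts. Each line gives the 250 bases before the annotated start from RefSeq, build GRCm38.p6 (the same coordinates as mm10), read 5′ to 3′ on the gene's strand. Capitals mark CG dinucleotides, the sites of DNA methylation in mammals. Hoxa5 is shown as the member with most counts (chr6:52204588-52204837, minus strand), Hoxa6 as one seen in the libraries numbered 1 alone (chr6:52208673-52208922, minus strand), Hoxa2 as one with few CG sites (chr6:52164832-52165081, minus strand), and Hoxb4, the paralogue of Hoxa4, as one with no counts (chr11:96318017-96318266, plus strand).
Hoxa5: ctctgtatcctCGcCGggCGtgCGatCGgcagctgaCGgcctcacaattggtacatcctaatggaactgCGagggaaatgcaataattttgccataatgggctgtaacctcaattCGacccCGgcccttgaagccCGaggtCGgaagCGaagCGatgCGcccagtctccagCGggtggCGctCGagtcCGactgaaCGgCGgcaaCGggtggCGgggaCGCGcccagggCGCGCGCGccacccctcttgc
Hoxa6: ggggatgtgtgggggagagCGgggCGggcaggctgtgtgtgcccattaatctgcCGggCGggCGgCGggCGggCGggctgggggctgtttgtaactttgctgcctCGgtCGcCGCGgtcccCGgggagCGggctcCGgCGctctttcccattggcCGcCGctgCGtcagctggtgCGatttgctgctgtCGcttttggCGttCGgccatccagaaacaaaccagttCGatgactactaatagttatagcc
Hoxa2: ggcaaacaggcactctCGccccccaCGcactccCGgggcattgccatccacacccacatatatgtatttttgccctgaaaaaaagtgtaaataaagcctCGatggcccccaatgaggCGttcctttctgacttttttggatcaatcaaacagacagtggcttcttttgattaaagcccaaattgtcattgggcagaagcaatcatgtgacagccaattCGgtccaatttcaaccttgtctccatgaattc
Hoxb4: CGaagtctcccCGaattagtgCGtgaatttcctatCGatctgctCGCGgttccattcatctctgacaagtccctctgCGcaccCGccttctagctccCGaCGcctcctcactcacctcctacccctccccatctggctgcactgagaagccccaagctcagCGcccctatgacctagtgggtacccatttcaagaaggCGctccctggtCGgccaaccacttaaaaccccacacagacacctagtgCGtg
These windows held 28, 24, 6 and 14 CG dinucleotides in the order shown. The table held 24 windows for 22 of the 39 members. The 9 windows of members with counts had 3 to 28 CG dinucleotides (median 13), and the 15 windows of members without counts had 2 to 35 (median 12), against a median of 6 over 32851 windows of all genes. The CG numbers of HOX windows with and without counts therefore overlapped almost fully. The motif TGATNNAT, bound by HOX proteins together with PBX, was searched on both strands. It was in 1 of the 9 windows with counts (Hoxa2) and in 3 of the 15 without, against 7.68% of all windows. AGGTCA, the core element bound by retinoic acid receptors, was in 0 of the 9 and in 6 of the 15, against 14.02% of all windows. TATAAA was in 1 and in 3 of them, against 12.4%. None of the 3 motifs contains another, and these letter matches are descriptions and say nothing of binding in these cells.

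Depth outside ribosomal RNA set what could be seen of the HOX genes. Total counts were 27424909 and 8368169 for neuron and 3150354 and 32913243 for proliferating libraries, in number order, of which 7 ribosomal RNA or rRNA-like genes took 88.2% to 98.1%. The other rows held 3241915 and 617872 counts in the neuron libraries and 292302 and 614465 in the proliferating ones, and levels below are CPM, the usual depth-scaled counts, computed over these totals. A gene with a count of 0 could, at 3 counts, have a level of up to 0.925 and 4.86 CPM in neuron 1 and 2, and of up to 10.3 and 4.88 CPM in proliferating 1 and 2. Intervals and these limits cover counting error only, since PCR copies of reads are not independent molecules. The libraries were more alike by number than by group: Pearson's r of log2 CPM, taken across tested genes and not across replicates, was 0.82 between the libraries numbered 1 and 0.84 between those numbered 2, against 0.61 within neuron and 0.56 within proliferating libraries. Some defining markers went against the labels. The division marker Mki67 had 601 and 1280 CPM in the neuron libraries, against 51.3 and 158 CPM in the proliferating ones. Top2a, also of dividing cells, had 727 and 919 CPM in the neuron libraries, against 82.1 and 124 CPM in the proliferating ones. Otic markers were mixed: of 9 otic progenitor markers 8 had counts, among them Vim with 9919 in all, Nes with 3283, Sox2 with 915, Jag1 with 535 and Eya1 with 204, while Gata3 had 3, Pax2 had 1 and Fgf20 had none.

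Nearly all HOX counts in these cells came from the HoxA cluster. Of 232 HOX counts over the 4 libraries, 231 fell in HoxA, 1 in HoxC, and none in HoxB or HoxD. HoxA had 159 and 30 counts in neuron 1 and 2 and 14 and 28 counts in proliferating 1 and 2. These are 49.0 and 48.6 CPM in the neuron libraries, and 47.9 and 45.6 CPM in the proliferating libraries. All 10 HoxB and all 9 HoxD genes were at 0 in every library, which over the pooled libraries allows up to 0.629 CPM for either cluster. Pooled over the libraries, summed HoxA was thus at least 77-fold higher than HoxB or HoxD, with 3 counts over all libraries as the limit. Single libraries bound it less: in proliferating 1 the limit of 3 counts is 10.3 CPM, against 47.9 CPM for HoxA. HoxA exceeded each other cluster in 4 of 4 libraries. The single HoxC count belonged to Hoxc11 in neuron 1, with a ratio of HoxA to HoxC of 231 (exact 95% interval 41.1 to 9163). The clusters lie in mm10 on chromosomes 6 (HoxA), 11 (HoxB), 15 (HoxC) and 2 (HoxD).

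**Figure D1:**
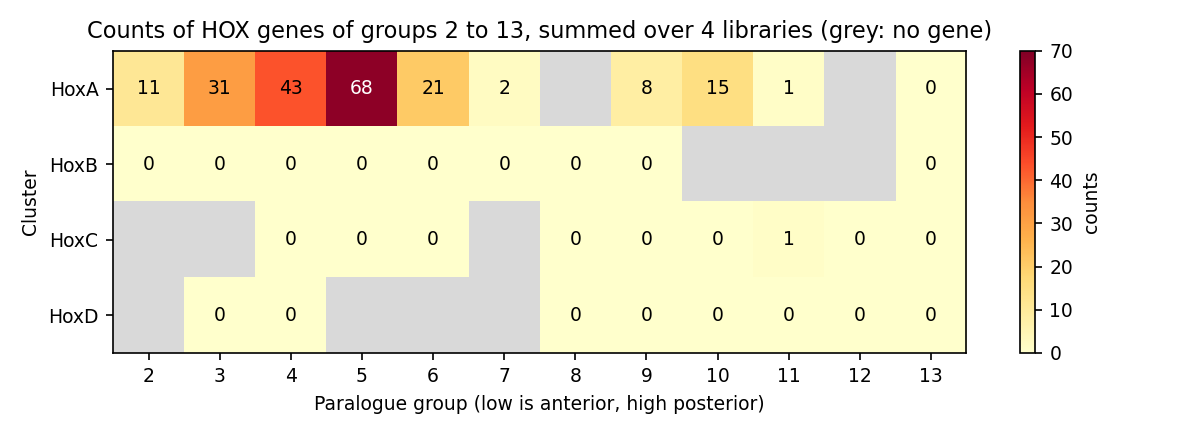
Counts of each HOX gene of paralogue groups 2 to 13 summed over the 4 libraries, by cluster (rows) and group (columns), with grey where the mouse has no gene. Counts run along HoxA from Hoxa2 (11) through a peak at Hoxa5 (68) to Hoxa10 (15), while the other clusters hold 1 count, in Hoxc11.

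Within HoxA the counts reached from the anterior members to Hoxa11, with a summed maximum at Hoxa5. Of its 11 genes, 10 had at least 1 count somewhere, and Hoxa13, which patterns the ends of the limbs, had none. Groups 8, 12 and 13 had no counts in any library, and HoxA has no member of groups 8 and 12. In neuron 1 and 2, counts were present for 10 and 6 paralogue groups, against 5 and 7 in proliferating 1 and 2. Hoxa4 and Hoxa5 had counts in all 4 libraries, and no other member of their groups had any. As genes, 11 and 6 members were detected in the neuron libraries and 5 and 7 in the proliferating libraries. At the depth of the shallowest library, 292302 counts, the exact expected numbers were 6.06 and 5.58 in the neuron libraries and 5.00 and 4.86 in the proliferating libraries. At equal depth the libraries thus differed by little more than 1 gene.

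**Figure D2:**
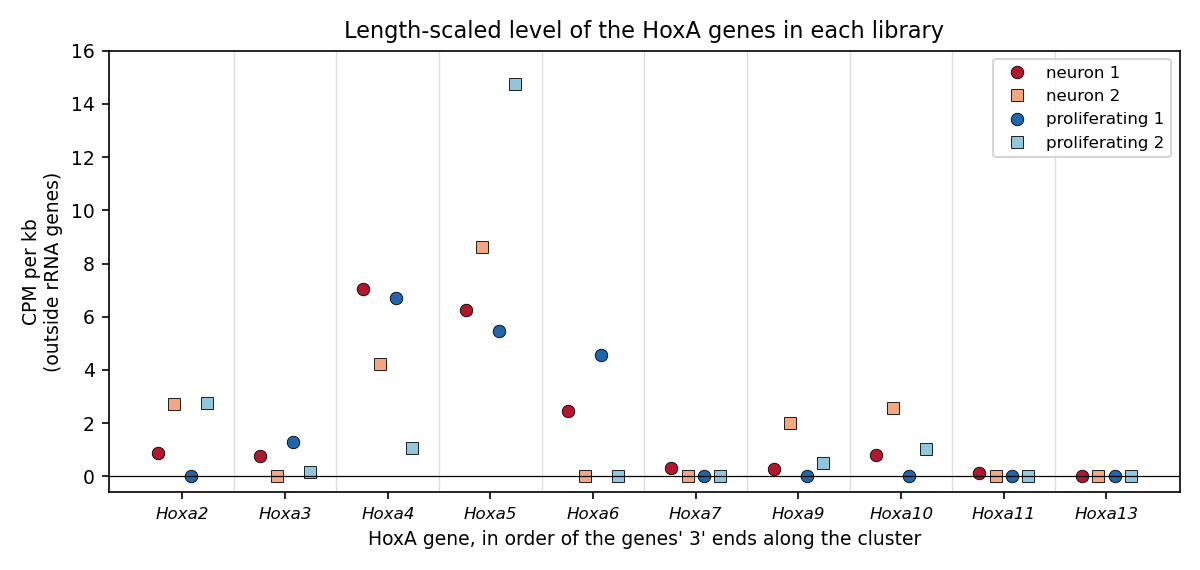
Level of 10 HoxA genes, in CPM outside ribosomal RNA genes per kilobase of gene length, in each library, with genes in their order along the cluster. Hoxa4 and Hoxa5 are the highest by mean, Hoxa6 is at 0 in both libraries numbered 2, and Hoxa13 is at 0 in all 4.

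Among anterior members, Hoxa2 had few counts and those of Hoxa3 came mostly from neuron 1. Hoxa2, which sets the identity of the second pharyngeal arch and has the hindbrain's most forward HOX boundary (chromosome 6, 52162417 to 52164831), had 5 and 3 counts in neuron libraries and 0 and 3 in proliferating libraries. Hoxa3, required for thymus and parathyroid (52169062 to 52213336), had 26 and 0 counts in neuron libraries and 4 and 1 in proliferating libraries. Its intervals overlapped within each group, at 5.24 to 11.8 CPM in neuron 1 and 0 to 5.97 CPM in neuron 2, and at 3.73 to 35.04 CPM in proliferating 1 and 0.041 to 9.07 CPM in proliferating 2. Hoxb1, Hoxb2, Hoxb3, Hoxd1 and Hoxd3 were at 0 throughout.

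Central members gave the largest share of HOX counts in every library. Hoxa5, which acts in the lung and the neck vertebrae (52201754 to 52204587), had 38 and 10 counts in neuron libraries and 3 and 17 in proliferating libraries. In CPM this was 11.7 and 16.2 in neuron 1 and 2 (95% Poisson intervals 8.29 to 16.1 and 7.76 to 29.8), and 10.3 and 27.7 in proliferating 1 and 2 (2.12 to 29.99 and 16.1 to 44.3). The groups overlapped, and proliferating 2 was the highest library. Hoxa4 (52189671 to 52191753), a member of the group that marks the hindbrain's rear part, had 35 and 4 counts in neuron libraries and 3 and 1 in proliferating libraries. Hoxa6 (52206288 to 52208722), expressed from the neck level backward in the embryo, had 18 and 0 counts in neuron libraries and 3 and 0 in proliferating libraries. Hoxa6 was thus seen in the libraries numbered 1 and not in those numbered 2. Its 5.55 CPM in neuron 1 (95% Poisson interval 3.29 to 8.77) lies under the upper 95% limits of 5.97 CPM in neuron 2 and 6.00 CPM in proliferating 2. This overlap is no test of a difference, and the shares of Hoxa6 by number, pooled over the groups, are given below. Hoxa7 had 2 counts, both in neuron 1. The other 11 central genes, all of HoxB, HoxC and HoxD, were at 0.

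Posterior members had few counts, nearly all in Hoxa9 and Hoxa10. Hoxa10, which acts at lumbar levels and in the uterus (52231197 to 52240854), had 8 and 5 counts in neuron libraries and 0 and 2 in proliferating libraries. Hoxa9, also a regulator of blood stem cells (52223100 to 52231089), had 3 and 4 counts in neuron libraries and 0 and 1 in proliferating libraries. Hoxa11, a gene of the forearm and the uterus, had 1 count, in neuron 1, as did Hoxc11. The other 12 posterior genes were at 0. Posterior genes together had 4.01 and 14.6 CPM in the neuron libraries, and 0 and 4.88 CPM in the proliferating libraries. The 0 of proliferating 1 allows up to 10.3 CPM, so the groups overlap within counting error.

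Per length the HoxA genes described here ran, from high to low, Hoxa5, Hoxa4, Hoxa6, Hoxa2, Hoxa10, Hoxa9, Hoxa3, Hoxa7 and Hoxa11. On this scale, CPM per kilobase, Hoxa5 averaged 8.77 ± 4.20 and Hoxa4 averaged 4.76 ± 2.76 (SD, n = 4 libraries), and their libraries overlapped (5.47 to 14.7 for Hoxa5 and 1.06 to 7.04 for Hoxa4). Those of Hoxa4 also overlapped the libraries of Hoxa6 (0 to 4.55). Hoxa6 averaged 1.75 ± 2.20, Hoxa2 1.59 ± 1.38, Hoxa10 1.10 ± 1.08, Hoxa9 0.70 ± 0.89 and Hoxa3 0.55 ± 0.59 (SD, n = 4 libraries), and no neighbouring pair among them differed by more than its spread. The low place of Hoxa3 comes with the longest gene length, 10600 bases against 1877 for Hoxa5, as implied by the deposited values. HOX genes were of middling to low abundance: of 23761 genes with counts, 36.4% had a higher mean CPM than Hoxa5 and 55.9% a higher one than Hoxa2.

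As point estimates over counts outside ribosomal RNA, the summed HOX level was nearly the same in the 4 libraries. It was 49.4 CPM in neuron 1 (95% Poisson interval 42.0 to 57.6), 48.6 in neuron 2 (32.8 to 69.3), 47.9 in proliferating 1 (26.2 to 80.4) and 45.6 in proliferating 2 (30.3 to 65.9). The means were 49.0 ± 0.57 CPM in neuron and 46.7 ± 1.65 CPM in proliferating libraries (SD, n = 2 each), a log2 ratio of 0.067. An exact two-sided permutation test gave p = 0.333, the smallest that 2 libraries against 2 allow. Within number 1 the ratio of neuron to proliferating was 1.03 (exact 95% interval 0.596 to 1.93), and within number 2 it was 1.07 (0.615 to 1.85). These intervals compare libraries, not conditions, and a change within these bounds was not detectable at this depth. In bulk RNA a change in the share of HOX-expressing cells and a change in RNA per cell cannot be told apart. With total counts as the denominator, ribosomal RNA included, the log2 ratio within number 2 was 2.08, where ribosomal RNA took 98.1% of proliferating 2 and 92.6% of neuron 2. The log2 ratio between groups was 0.83 with that denominator, and 1.34 without the members that another gene overlaps on the other strand (exact permutation p = 0.667 for each).

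**Figure D3:**
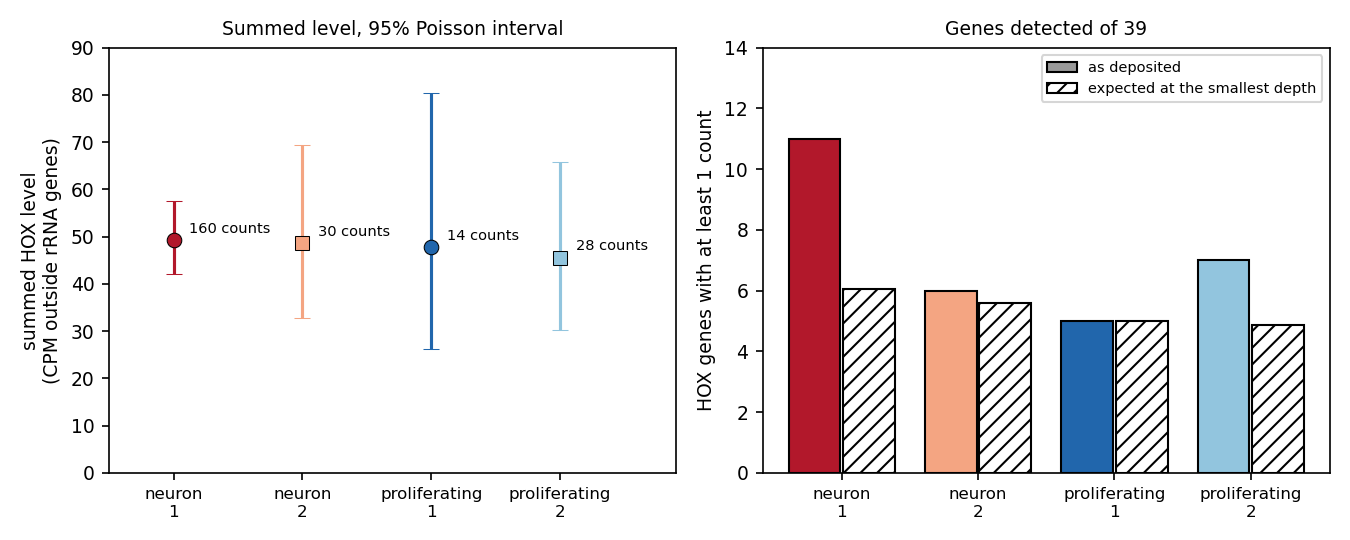
Left, summed HOX level in CPM outside ribosomal RNA genes with 95% Poisson intervals. Right, number of the 39 HOX genes with at least 1 count (solid) and the number expected at 292302 counts (hatched). The 4 summed levels lie between 45.6 and 49.4 CPM, and the detected genes number 11 in neuron 1 but 5 to 7 elsewhere.

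No HOX gene was called different between groups. In edgeR's quasi-likelihood fit with group alone, 4 of the 39 members passed the count filter (Hoxa3, Hoxa4, Hoxa5 and Hoxa6), and 0 were called higher and 0 lower at an adjusted p of 0.05, where 0% of 11525 tested genes were called. None of the 4 had an unadjusted p under 0.05, against 129 of all tested genes. Over all genes DESeq2 and limma on log2(RPKM + 0.1) also called 0, with 191 and 1622 of 23768 genes at an unadjusted p under 0.05. Without the filter 11 members were tested with edgeR and with DESeq2, and each called 0, with 0 at an unadjusted p under 0.05. Hoxa5 had a log2 fold change, neuron over proliferating, of -0.44 (SE 1.29), Hoxa4 of 0.80 (SE 1.65), Hoxa3 of -0.59 (SE 1.90) and Hoxa6 of -0.39 (SE 2.23, 2 libraries per group; adjusted p = 1.00 in edgeR for each). The median of the 4 was -0.41, against 0.09 over all tested genes. With the replicate number as a block, edgeR called 0.495% of the 11525 genes (0.364% higher and 0.13% lower in neuron) and again 0 HOX genes, higher or lower.

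Within number 1, the neuron to proliferating ratio of CPM was 1.05 for Hoxa4 (exact 95% interval 0.332 to 5.35), 1.14 for Hoxa5 (0.362 to 5.78), 0.586 for Hoxa3 (0.203 to 2.31) and 0.541 for Hoxa6 (0.158 to 2.87). Within number 2 it was 0.585 for Hoxa5 (0.239 to 1.35), 3.98 for Hoxa4 (0.394 to 196) and 2.49 for Hoxa10 (0.407 to 26.1). Each of these intervals spans 1. By region, the anterior ratio was 0.974 within number 1 and 0.994 within number 2, and the central ratio was 0.932 and 0.773. The posterior ratio was 2.98 within number 2 (0.745 to 17.1) and had no value within number 1, where proliferating 1 had no posterior count.

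Pooled over the groups, the make-up of the HOX counts differed between library numbers. Neuron 1 supplied 160 of the 174 counts in number 1, while neuron 2 and proliferating 2 supplied 30 and 28 of the 58 in number 2. Hoxa6 made up 12.1% of the 174 HOX counts in the libraries numbered 1 (exact Clopper-Pearson 95% interval 7.63 to 17.9), and 0 of 58 in those numbered 2, with an upper limit of 6.16% by the same method. Hoxa3 took 17.2% (11.9 to 23.7) in number 1 and 1.72% (0.044 to 9.24) in number 2. Hoxa5 took 23.6% (17.5 to 30.6) in number 1 and 46.6% (33.3 to 60.1) in number 2. For these genes the pooled intervals of the numbers do not overlap, whereas Hoxa2 took 2.87% (0.939 to 6.58) in number 1 and 10.3% (3.89 to 21.2) in number 2, with overlapping intervals. Within each group the intervals of all 3 genes overlapped between the numbers. For Hoxa5 they were 17.4 to 31.1% in neuron 1 and 17.3 to 52.8% in neuron 2, and 4.66 to 50.8% in proliferating 1 and 40.6 to 78.5% in proliferating 2. Posterior genes made up 7.47% (4.04 to 12.4) in number 1 and 20.7% (11.2 to 33.4) in number 2. The libraries also differed by number in base composition: the count-weighted GC content of their genes was 50.2% in neuron 1 and 45.5% in neuron 2, and 51.3% in proliferating 1 and 47.5% in proliferating 2. The GC content of Hoxa6 was 57.3%, of Hoxa3 51.1% and of Hoxa5 49.8%, and the part of base composition in this make-up was not tested.

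**Figure D4:**
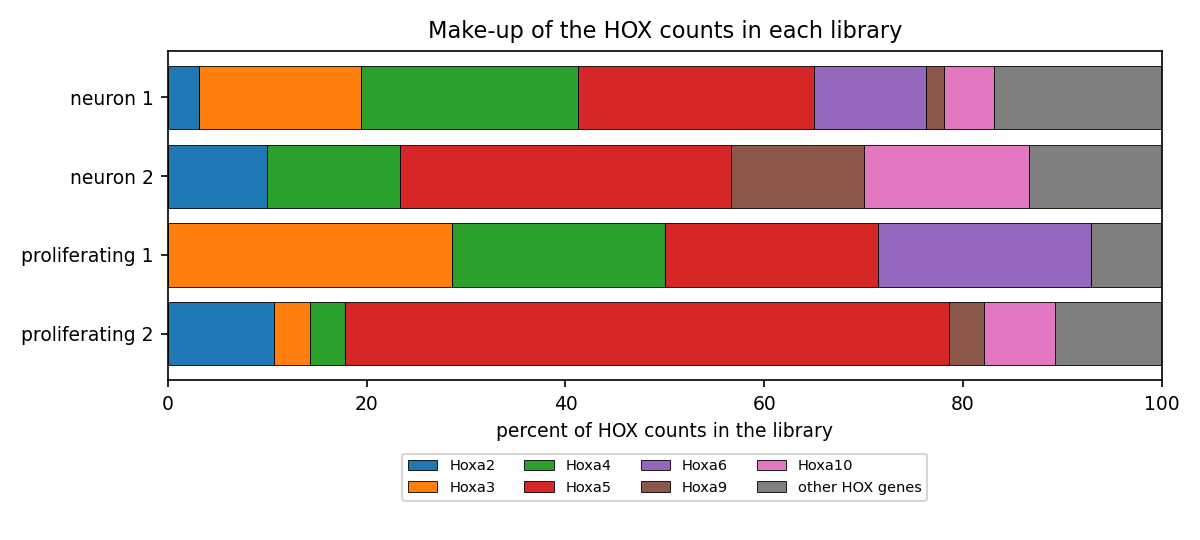
Share of HOX genes in the HOX counts of each library, in percent, with members not drawn singly summed as other HOX genes (160, 30, 14 and 28 counts from top to bottom). Hoxa6 and most Hoxa3 counts sit in the libraries numbered 1, while Hoxa5 takes 33.3% in neuron 2 and 60.7% in proliferating 2.

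Noncoding neighbours of HoxA gave few counts. Hotairm1, a long noncoding RNA at the anterior end of the cluster, had 17 and 0 counts in neuron libraries and 2 and 0 in proliferating libraries, so like Hoxa6 it was seen in the libraries numbered 1 alone. Halr1, a long noncoding RNA beyond that end, had 4 and 5 counts in neuron libraries and 0 and 1 in proliferating libraries. At the other end of the cluster Hottip and Evx1, next to Hoxa13, were at 0 in all libraries, as was Evx2 beside HoxD. Hotair, within HoxC, had 0 and 1 counts in neuron libraries and 0 and 1 in proliferating libraries. The rows of the HOX-embedded microRNA genes Mir10a, Mir10b, Mir196a-1, Mir196a-2, Mir196b and Mir615 were at 0, in libraries not made for small RNAs. The genes flanking HoxA were expressed: Skap2 had 35.2 and 77.7 CPM in neuron libraries and 61.6 and 43.9 CPM in proliferating libraries. Exons of several members, Hoxa2, Hoxa3, Hoxa4, Hoxa7, Hoxa9 and Hoxa11 among them, overlap those of another gene in GENCODE M21, and the strand setting of the counting was not given in the sources used here. Where the other gene is among the counted rows, reads in those exons could thus have been assigned to either gene or dropped. The genes that overlap Hoxa2 (Gm28308) and Hoxa4 (Gm29430) are not among the counted rows. Hoxa5, Hoxa6 and Hoxa10 have no such overlap, and between them they had counts in all 4 libraries. The bodies of Hoxa5 and Hoxa6 lie within Hoxaas3 on the other strand, whose own row was at 0.

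Cofactors of HOX proteins were well represented. All 9 genes of the TALE family, which bind DNA together with HOX proteins, had counts, and 7 were tested with 0 called. Summed, they had 635 and 503 CPM in the neuron libraries and 907 and 780 CPM in the proliferating libraries. Per length, in CPM per kilobase, Meis1 had 18.1 and 26.0 in neuron libraries and 41.4 and 40.5 in proliferating libraries, and Pbx3 26.6 and 16.2 against 20.6 and 25.2. The Meis1 values of the groups did not overlap, which with 2 libraries per group is by itself no sign of a difference. Its log2 fold change was -0.76 (SE 0.96, adjusted p = 1.00 in edgeR). Both genes were above Hoxa5 on this scale in every library.

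Factors of the forebrain and midbrain, regions formed without HOX expression, were also present in part. Of 20 such genes 10 had counts, 4 were tested and 0 were called. Otx2, the main forebrain and midbrain determinant, had 1 count, in neuron 2, and Six3, Six6, Emx2, En1 and Wnt1 had none. Dlx1, a gene of forebrain interneurons and also of the pharyngeal arches, had 79.6 and 74.4 CPM in neuron libraries and 17.1 and 83.0 CPM in proliferating libraries. Dlx2 had 63.5 and 4.86 CPM in neuron libraries and 10.3 and 24.4 CPM in proliferating libraries. Lhx2, a gene of the cortex and the eye, had 22.2 and 6.47 CPM in neuron libraries and 47.9 and 22.8 CPM in proliferating libraries.

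Of 17 hindbrain regulators and HOX activators, 11 had counts, 7 were tested and 0 were called. The CDX factors, which switch on trunk HOX genes, were at 0 in all libraries (Cdx1, Cdx2 and Cdx4), as was Fgf3. The list's level came from the Iroquois genes, with Irx5 at 68.2 and 21.04 CPM in neuron libraries against 92.4 and 78.1 CPM in proliferating libraries, Irx1 at 25.6 and 0 against 95.8 and 9.76 CPM, and Irx3 at 36.7 and 16.2 against 61.6 and 94.4 CPM. Egr2, a hindbrain segment gene that also responds to growth factors, had 22 and 3 counts in neuron libraries and 2 and 7 in proliferating libraries. Summed, the list had 246 and 93.9 CPM in neuron libraries and 428 and 391 CPM in proliferating libraries.

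Retinoic acid, made by ALDH1A enzymes and cleared by CYP26 enzymes, induces HOX genes from the anterior end of each cluster. Of 19 genes of this pathway 16 had counts, 9 were tested and 0 were called. The receptor partner Rxra had 26.8 and 11.3 CPM in neuron libraries and 109 and 13.02 CPM in proliferating libraries. Rdh10, which makes the precursor, had 16.7 and 6.47 CPM in neuron libraries and 10.3 and 19.5 CPM in proliferating libraries, and the binding protein Crabp1 had 5.55 and 1.62 against 6.84 and 0 CPM. Aldh1a2, the embryo's main producer, was at 0 throughout. Aldh1a1 had 82 and 9 counts in neuron libraries and 0 and 0 in proliferating libraries, while Aldh1a3 had 62 of its 64 counts in proliferating 2 (both named after their values were seen). The median log2 fold change of the 9 tested genes was -0.39, against 0.09 over all tested genes.

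Of 22 factors of the otic vesicle 15 had counts, 6 were tested and 0 were called with group alone. Sox2, a progenitor factor of the inner ear and the neural tube, had 143 and 157 CPM in neuron libraries and 359 and 407 CPM in proliferating libraries. Dlx5 had 56.8 and 0 CPM in neuron libraries and 13.7 and 4.88 CPM in proliferating libraries. Spry2, an inhibitor of FGF signalling, had 18.5 and 25.9 CPM in neuron libraries and 88.9 and 311 CPM in proliferating libraries. With the replicate block it was the 1 gene of these axial lists called, where 0.13% of the 11525 tested genes were called lower. Its log2 fold change in that fit was -2.82 (SE 0.67, adjusted p = 0.0117 in edgeR).

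Cell types that could bring HOX transcripts from outside the head were looked for by their markers. Of 10 mesenchyme and fibroblast genes 7 had counts, with summed levels of 71.2 to 112 CPM in neuron and 78.1 to 123 CPM in proliferating libraries, carried by Pdgfra (79.3 and 43.7 against 106 and 39.1 CPM) and Tbx18. Of the others, Col3a1 had 17 counts in all, Col1a1 had 14, Twist1 had 8, Dcn had 2 and Postn had 1, while Col1a2, Prrx1 and Lum were at 0. The 5 immune markers summed to 1.62 to 6.79 CPM in neuron and 0 to 13.7 CPM in proliferating libraries, with 18 counts of Cd68 and 3 of Aif1 in all. Of 4 endothelial markers, Pecam1 and Cdh5 were at 0, and Kdr and Tek had 15 and 3 counts. The 9 neuron markers summed to 1190 to 1701 CPM in neuron and 2521 to 2624 CPM in proliferating libraries. Tubb3 had 457 and 12.9 against 811 and 97.6 CPM, and Elavl3 had 241 and 69.6 against 301 and 350 CPM. Other members did not follow them: Dcx had 286 and 165 against 174 and 233 CPM, and Rbfox3 54.3 and 4.86 against 13.7 and 3.25 CPM. With group alone the median log2 fold change of the 8 tested neuron markers was -0.81. The 8 glial markers summed to 250 to 303 CPM in neuron and 386 to 783 CPM in proliferating libraries. Olig2 had 37.0 and 11.3 CPM in neuron libraries against 233 and 273 CPM in proliferating libraries, and Olig1 had 50.3 and 4.86 against 181 and 96.02 CPM. Aqp4, of astrocytes, went the other way, at 85.4 and 262 CPM in neuron libraries against 54.7 and 4.88 CPM in proliferating libraries. Gfap, also of astrocytes, did not follow Aqp4, at 71.6 and 21.04 CPM in neuron libraries against 311 and 11.4 CPM in proliferating libraries. The 5 division markers summed to 1806 to 3258 CPM in neuron and 185 to 431 CPM in proliferating libraries, and the 9 otic progenitor markers, led by Vim and Nes, to 1570 to 2556 against 3281 to 7566 CPM. With the replicate block, edgeR called 4 of the 5 division markers higher in neuron libraries and 1 of the 8 tested neuron markers lower. Of the 4 tested glial markers it called Aqp4 higher and Olig1 and Olig2 lower. Over all 11525 tested genes that fit called 0.364% higher and 0.13% lower in neuron libraries. As point estimates over counts outside ribosomal RNA, the summed HOX levels lay between 45.6 and 49.4 CPM in libraries whose marker sums differed this much. Their intervals were wide, at 26.2 to 80.4 CPM in proliferating 1, and the part of these cell states in the HOX values was not tested.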

How the data were processed

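The libraries were made from total RNA treated with DNase, with ribosomal RNA depleted from 500 ng and a stranded kit, per the labels' protocols. The submitters' processing notes name featureCounts, HISAT2, DESeq2 and SAMtools, with mm10 as the build, while versions, settings, annotation and strand option are not given in the sources used here. The authors deposited raw counts per gene and RPKM values, one file per library. The length implied by a gene's count, RPKM and library total was one value for 17709 of 17709 genes across libraries (relative tolerance 0.001), so the authors' RPKM used totals with ribosomal RNA. All 49997 symbols matched RefSeq GRCm38.p6.

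CPM were computed over counts outside mt-Rnr1, mt-Rnr2, Rn18s-rs5 and the rRNA-like rows AY036118, Gm15564, Lars2 and Mir6236. Positions, exon overlaps and transcript GC came from GENCODE M21 (mm10). The comparison over all genes used R 4.3.3 with edgeR 4.0.16 (quasi-likelihood, TMM, filterByExpr), with Benjamini-Hochberg adjusted p over 11525 genes. This fit used library totals with ribosomal RNA. Alternatives used limma 3.58.1, DESeq2 1.42.0, other scalings and filters, and left-out libraries. The edgeR fits and interval functions were tested on simulated data. All 39 members were counted; those with 10 or more counts in all, companion genes called by an edgeR fit and the 3 with the highest mean RPKM per axial list, or 2 per marker list, were to be named, and others named were chosen after their values were seen. Some genes that this rule names are not reported here. The members and lists were chosen with earlier results of these data known.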

Additional observations from a re-analysis of the deposited data

How the results depend on the processing

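The labels share replicate numbers between groups without saying what a number means, so the numbers were not taken as pairs (deviations from group means correlated at 0.69 across genes between the libraries numbered 1). With the replicate block, edgeR called 42 genes higher and 15 lower, with the block and a GC correction limma called 65 and 24, and with the block and no low-count filter, an alternative added after seeing the data, 34 and 9. HOX genes called numbered 0 under every alternative run, the replicate block included, which in this design cannot show stability. Without each library in turn, the genes called were also 0.

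Single HOX fold changes turned over with the setting, none being called. Hoxa5 became 0.86 with totals that include ribosomal RNA, 0.72 on log2(RPKM + 0.1), 0.28 on log2(RPKM + 1) and 0.66 without proliferating 2. Over the left-out libraries Hoxa5 ranged from -1.11 to 0.66, Hoxa4 from -0.099 to 2.27, Hoxa3 from -1.58 to 1.25 and Hoxa6 from 0.19 to 5.32, where each passed the filter (without neuron 2, Hoxa3 was 0.01). The median of all genes was 0.86 with totals that include ribosomal RNA, against 0.09 with TMM.

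The log2 ratio of summed HOX between groups kept its sign under all 11 alternatives run, from 0.03 to 1.34, and was 0.07 with the replicate block (mean of the ratios within numbers) and 0.03 to 0.10 without each library in turn. Within number 2 it was 2.08 with ribosomal RNA in the denominator, 0.99 without members overlapped on the other strand and 0.93 when scaled to genes in the GC and length range of the HoxA genes. Without the overlapped members number 1 had no value, since proliferating 1 had no count left. HOX genes with at least 3 counts numbered 8 and 6 in neuron and 4 and 3 in proliferating libraries. Those with at least 10 counts numbered 5 and 1 in neuron and 0 and 1 in proliferating libraries. Without members whose exons overlap another gene, an alternative added after seeing the data, 4 and 2 were detected in neuron and 2 and 2 in proliferating libraries, and at the smallest depth 6.06 were expected in neuron 1. By summed RPKM the highest paralogue group was 4 in neuron 1 and in proliferating 1, where by CPM it was 5 in neuron 1 and 3 in proliferating 1. Depth limits every value here, since proliferating 1 had 14 HOX counts.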
